A study of Homo sapiens with 14 samples.

Results

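The comparison covered every region of RNA polymerase III subunit POLR3A mapped by chromatin immunoprecipitation sequencing (ChIP-seq) in T47D cells after progesterone (P4) against every region mapped after vehicle. T47D is an established line of oestrogen and progesterone receptor positive breast cancer, grown in medium with fetal bovine serum and insulin. All cells had 1 h of either P4 or ethanol, and the line was otherwise the same in both groups. The labels list 3 POLR3A libraries per treatment and 1 pooled input per treatment. Each group of 3 libraries had 1 deposited list of regions, so no value per replicate was used here and the spread between replicates is unknown. Along chromosomes 1 to 22 and X the P4 list held 47904 regions and the vehicle list 29161. Together they made up 77065 of the 227513 regions in the study's 4 lists, and lists of the progesterone receptor (PR) held the rest.

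A P4 region that overlapped a vehicle region by at least 1 bp was counted as shared, and a region of either list with no such overlap as P4-only or vehicle-only. Of the P4 regions, 12350 were shared and 35554 (74.2%) were P4-only. Of the vehicle regions, 12254 were shared and 16907 (58%) were vehicle-only, so there were 2.10 P4-only regions for each vehicle-only one. With the P4 list cut to its 29161 strongest regions, the length of the vehicle list, there were 19290 P4-only and 19249 vehicle-only regions. Lists of equal length must give nearly equal counts, since most overlaps join 1 region of each list, so this setting bears on the kind of regions and not on their number. The files hold no read counts, the depth of the libraries is unknown, and the part of depth in the length of the lists was not tested.

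RNA polymerase III makes the short RNAs that every cell needs in bulk: transfer RNAs, the small ribosomal 5S RNA, U6 spliceosomal RNA, 7SK, the signal recognition particle RNA and others. POLR3A is its largest subunit and forms part of the catalytic centre. At tRNA genes the factor TFIIIC binds the A and B boxes inside the gene and brings in TFIIIB, which places the polymerase at the start. At U6 and 7SK genes the SNAPc complex binds upstream of the gene instead.

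Promoter sequences at the strongest summits are shown first, as examples of single regions that do not stand for their class. For each class these are the 250 bases before a protein-coding start that held the strongest region summits, in RefSeq windows of GRCh38.p14, written from 5′ to 3′ on the gene's strand. Capitals mark matches, on either strand, to the B box core of tRNA genes, the GC box GGGCGG, the ETS site CCGGAAG, the NRF1 site and TATAAA, and matches may overlap. The CCAAT box, the ZNF143 site ACTACAA, the steroid receptor half-site AGAACA and the E box CACGTG were searched too and had no match. The first pair, shared, lies before TIA1 at chr2:70248794-70249043 (minus strand) and before POLR3E at chr16:22297159-22297408 (plus strand).
TIA1: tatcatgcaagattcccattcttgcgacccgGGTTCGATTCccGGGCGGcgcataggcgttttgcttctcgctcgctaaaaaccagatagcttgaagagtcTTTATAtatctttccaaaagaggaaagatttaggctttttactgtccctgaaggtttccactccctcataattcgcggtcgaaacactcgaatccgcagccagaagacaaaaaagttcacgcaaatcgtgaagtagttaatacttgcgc
POLR3E: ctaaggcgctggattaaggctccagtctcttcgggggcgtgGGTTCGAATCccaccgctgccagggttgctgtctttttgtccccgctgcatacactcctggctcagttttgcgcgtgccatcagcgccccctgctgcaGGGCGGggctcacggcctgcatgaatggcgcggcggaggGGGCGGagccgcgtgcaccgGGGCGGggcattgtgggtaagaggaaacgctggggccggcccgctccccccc
The next pair, P4-only, lies before CARD8 at chr19:48255947-48256196 (minus strand) and before MED25 at chr19:49818039-49818288 (plus strand).
CARD8: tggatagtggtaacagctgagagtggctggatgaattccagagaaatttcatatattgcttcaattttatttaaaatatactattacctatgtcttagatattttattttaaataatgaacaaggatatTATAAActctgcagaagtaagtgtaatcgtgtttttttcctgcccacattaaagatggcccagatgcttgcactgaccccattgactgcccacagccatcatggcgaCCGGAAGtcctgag
MED25: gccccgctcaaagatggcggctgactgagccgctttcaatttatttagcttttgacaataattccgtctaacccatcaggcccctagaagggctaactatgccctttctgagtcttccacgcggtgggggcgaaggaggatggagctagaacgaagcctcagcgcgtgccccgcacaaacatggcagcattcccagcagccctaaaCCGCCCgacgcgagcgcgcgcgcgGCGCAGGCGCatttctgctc
The last pair, vehicle-only, lies before TACO1 at chr17:63600645-63600894 (plus strand) and before GCN1 at chr12:120194716-120194965 (minus strand).
TACO1: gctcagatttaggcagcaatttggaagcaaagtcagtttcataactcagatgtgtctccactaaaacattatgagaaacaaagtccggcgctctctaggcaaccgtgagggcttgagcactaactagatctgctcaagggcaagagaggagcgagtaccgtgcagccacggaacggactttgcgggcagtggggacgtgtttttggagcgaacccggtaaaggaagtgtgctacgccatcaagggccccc
GCN1: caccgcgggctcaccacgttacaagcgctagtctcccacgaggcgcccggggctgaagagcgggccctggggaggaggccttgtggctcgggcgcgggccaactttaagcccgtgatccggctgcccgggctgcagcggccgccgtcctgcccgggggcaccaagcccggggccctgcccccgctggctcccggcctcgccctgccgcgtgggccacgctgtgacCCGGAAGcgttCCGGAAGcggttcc

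Both of these shared windows held a tRNA gene under the summit. The TIA1 window, before the gene of an RNA-binding protein of stress granules, took in most of the glycine tRNA gene TRG-CCC2-1 at chr2:70248991-70249061, with the summit 219 bp before the TIA1 start. POLR3E, itself a gene of an RNA polymerase III subunit, had the leucine tRNA gene TRL-AAG2-4 at chr16:22297140-22297221 and a summit 227 bp before its start. The −log10 q of these P4 regions was 544.0 and 511.8, and their fold enrichment 73.5 and 56.3. The B box match in each window is that of the tRNA gene, and such a match was present in 2.28% of all 22131 coding promoter windows of 300 bases and in 2.05% of those with a region of both lists. The strongest promoter summits of the other classes were far weaker. CARD8, which encodes an inflammasome sensor, and MED25, a Mediator subunit, had P4-only regions with the same −log10 q of 8.67 and fold of 5.38. TACO1, a translational activator of mitochondrial cytochrome c oxidase, had a vehicle-only region with a −log10 q of 14.6, and GCN1, a ribosome-bound activator of the amino acid starvation response, one of 11.7. None of these 4 windows held a B box match. The GC box was in 56.3% of all windows, the ETS site in 12.8%, the NRF1 site in 7.40% and TATAAA in 9.46%.

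The strongest POLR3A regions were found under both treatments. The fold over background and the −log10 q of a region are the authors' own values and serve here to describe and rank regions within a list. All 415 P4 regions with a −log10 q of at least 50 overlapped a vehicle region, and all 428 such vehicle regions overlapped a P4 region. Between 20 and 50 the shared share was 96.9% of 643 P4 regions and 99.2% of 642 vehicle regions. Between 5 and 10 it was 46.4% of P4 regions (95% Wilson interval 45.2 to 47.5) and 57.7% of vehicle regions (56.4 to 59.0). In the weakest band, from 1.3 to 2.5, it fell to 12.2% of 12370 P4 regions and 24.97% of 6981 vehicle regions. These intervals cover counting error over regions only. The median −log10 q was 4.58 for shared P4 regions, 3.04 for P4-only and 3.06 for vehicle-only regions, and the highest was 591.9, 32.4 and 33.7. The median fold differed less between the classes, at 3.45, 3.22 and 3.46.

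**Figure D1:**
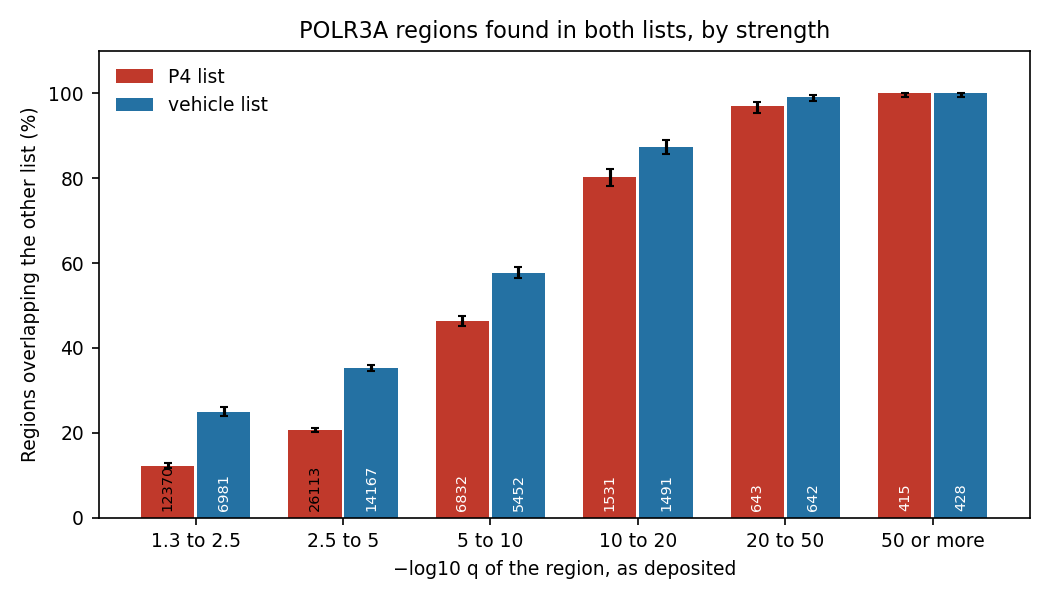
Share of the regions of each POLR3A list that overlapped the other list, in percent, by band of −log10 q, with 95% Wilson intervals as bars and the number of regions inside each column. Both lists climbed from 12.2% and 24.97% in the weakest band to 100% in the strongest.

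Shared regions were also wider. Their median width was 358 bp (quartiles 256 and 539) against 260 bp for P4-only (212 and 336) and 254 bp for vehicle-only regions (210 and 326). Widths of P4-only and vehicle-only regions lay close together, and with lists of equal length their order turned, at 257 and 259 bp. The shared class was the widest under all 4 alternatives run for width. The widest shared region, 9354 bp at chr21:8453750-8463103, and others of 6196 and 4287 bp lay on the short arm of chromosome 21, where ribosomal DNA repeats lie and reads cannot be assigned to 1 copy. A shared region of 5191 bp lay inside GSE1, a subunit of histone deacetylase complexes, and one of 3754 bp beside C16orf74 nearby. The widest P4-only region was 1638 bp at CCT5, a subunit of the TRiC chaperonin, followed by 1614 bp at TNS2, a tensin of focal adhesions. The widest vehicle-only regions were 1984 bp at 207.4 kb from TENM3 and 1335 bp at MRPL12, a mitochondrial ribosomal protein.

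Where a region was shared, its summit sat at nearly the same base at RNA polymerase III genes and less so elsewhere. Of 12796 overlapping pairs, 10955 joined 1 region of each list. The median distance between the P4 and the vehicle summit in these was 69 bp. In the 306 pairs at RNA polymerase III genes it was 10 bp, and 93.8% of the summits lay within 50 bp. At coding gene ends it was 104 bp over 2773 pairs, and inside coding genes 93 bp over 2876. Strength went with this: the median was 15 bp for vehicle regions with a −log10 q of 10 or more and 110 bp for those under 5. P4 and vehicle widths of a pair were alike, with a median ratio of 1.03, and 1.01 at RNA polymerase III genes. A vehicle region was split over 2 or more P4 regions in 514 cases, and a P4 region over 2 or more vehicle regions in 425. The vehicle region with the most partners, 6953 bp on the chromosome 21 short arm, met 4 P4 regions. A pair on chromosome 1 near RHOU at chr1:228637778-228639696 and chr1:228608670-228610635, met 3 each. In the other direction a 3677 bp P4 region inside GSE1 and a 1566 bp one at CDK4, the cyclin D kinase, each met 4 vehicle regions.

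Most regions at genes that RNA polymerase III transcribes were found under both treatments. A region was assigned to them when any part of it overlapped a tRNA gene or another such gene, or the 100 bp around it. This took in 319 shared regions, 12 P4-only and 13 vehicle-only ones. In the P4 list 96.4% of the regions at these genes were shared (95% interval 93.8 to 97.9), and in the vehicle list 96.1% (93.4 to 97.7). They were the strongest class, with a median −log10 q of 289.5 among the shared P4 regions. Of the 429 tRNA genes, 346 (80.7%) had a summit within 1 kb in both lists, 12 in the P4 list alone, 14 in the vehicle list alone and 57 in neither. Of 20 further RNA polymerase III genes, 19 had a POLR3A summit within 1 kb of an end in both lists and none in 1 list alone, against 22.1% in both, 11.5% in the P4 list alone and 8.71% in the vehicle list alone for all 19817 protein-coding genes. For RN7SK, the RNA that holds the elongation factor P-TEFb inactive, the −log10 q was 616.5 in the vehicle list and 586.3 in the P4 list. RMRP, the RNA of a ribonuclease that cuts ribosomal precursors, had 531.0 and 493.6, and the vault RNA gene VTRNA1-2 had 545.9 and 589.4. The lowest values were those of the Y RNA gene RNY4, at 16.0 and 28.1. VTRNA2-1 had no summit in either list. The values of RNU6-7 and RNU6-8 come from 1 region that lies at both genes.

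Small nuclear RNA genes of RNA polymerase II, whose promoters also bind SNAPc, had POLR3A within 1 kb in both lists at 15 of 15 genes. The levels were lower than at the RNA polymerase III genes, with a median −log10 q of 36.9 in the vehicle list and 30.3 in the P4 list. RNU12 had 35.7 and 30.3, and RNU11 36.9 and 41.9, both genes of the minor spliceosome. The 4 RNU1 genes had 99.2 to 153.3 under vehicle and 70.4 to 135.7 under P4, but their copies and that of RNU2-1 are nearly identical and reads cannot be assigned to single copies.

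Away from these genes, the P4-only and the vehicle-only regions lay in different places. Within 1 kb of either end of a protein-coding gene lay 12.2% of the P4-only regions (95% interval 11.9 to 12.6), 18.7% of the vehicle-only regions (18.1 to 19.3) and 26.1% of the shared ones (25.3 to 26.9), leaving out those at RNA polymerase III genes. Inside a coding gene but farther from its ends lay 45.5% of P4-only, 40.0% of vehicle-only and 26.3% of shared regions. The vehicle-only share at gene ends was above the P4-only share under each of the 5 alternatives run for it, for example 20.05% against 13.23% with lists of equal length. For the alternative of a −log10 q of at least 5, both lists were cut at 5 and the classes formed anew. Its 4271 vehicle-only regions include ones that overlap a weaker P4 region, as 2497 vehicle regions of that strength met none. In these new classes the vehicle-only share of 25.57% was also above the shared one of 18.03%. In the vehicle-only class of the full lists, 470 of 2304 regions from 5 to 10 lay at gene ends, and 21 of 193 from 10 on. For P4-only regions these were 493 of 3665 and 11 of 322. Regions over 500 kb from any coding gene made up 14.1% of shared, 6.03% of P4-only and 6.43% of vehicle-only regions. The gene table gives no exons, so exons and introns were not told apart.

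**Figure D2:**
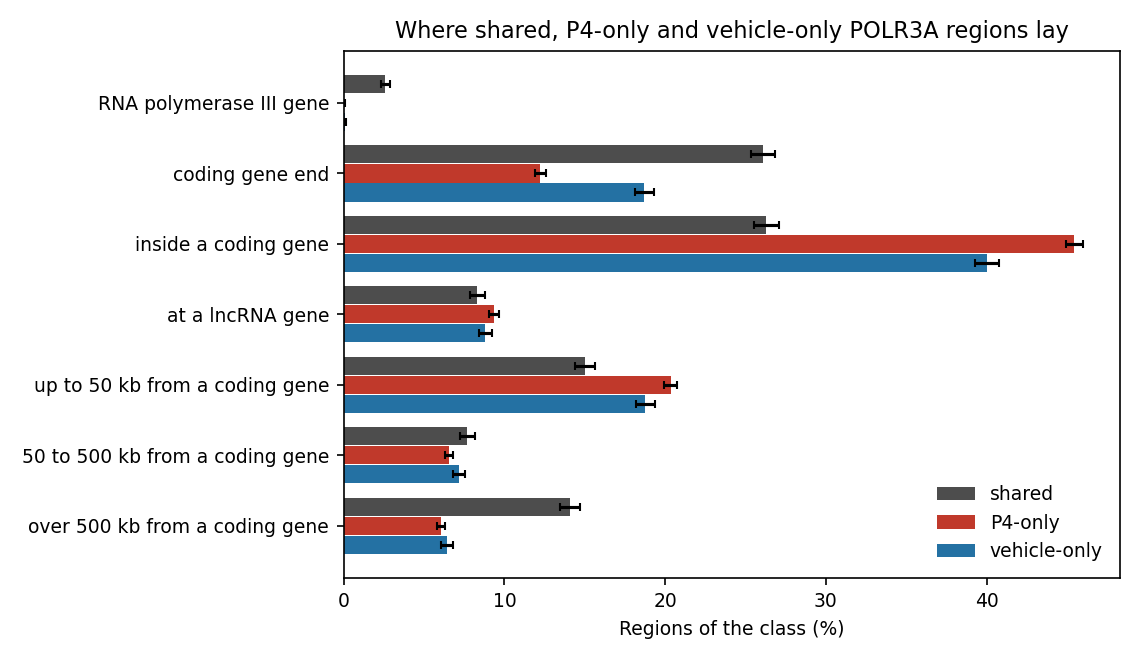
Share of shared, P4-only and vehicle-only POLR3A regions, in percent, in 7 kinds of place, each region counted once, with 95% Wilson intervals. P4-only regions had the largest share inside coding genes (45.5%) and the smallest at coding gene ends (12.2%).

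The difference at gene ends was at the start of genes. RefSeq promoter windows give the start and strand of 15811 coding genes, chromosome 8 not included. Within 1 kb of such a start lay 23.2% of shared regions (2711), 15.9% of vehicle-only regions (2576, 95% interval 15.4 to 16.5) and 9.81% of P4-only regions (3315, 9.50 to 10.1). At the other end of the gene the classes were alike, at 1.85%, 2.00% and 2.03%. Summits of shared and vehicle-only regions peaked just downstream of the start: the 100 bp from the start on held 3.78% of shared and 2.10% of vehicle-only regions, against 0.680% of P4-only ones. P4-only summits were also most frequent just downstream of the start, but were spread more evenly over the flanks. The 100 bp before the start held 121 of them, the 100 bp that begin 400 bp before it held 228, and the 100 bp after it 230. The next 100 bp downstream held 230 as well. With lists of equal length the first 2 of these counts were 78 and 148. In the vehicle-only class the order before the start was the opposite, with 167 in the nearest 100 bp and 126 in the farther one.

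Among regions within 1 kb of a start, 37.1% of vehicle-only summits (35.3 to 39.0) and 21.3% of P4-only summits (19.9 to 22.7) lay within 200 bp of it. With lists of equal length, an alternative added after the values were seen, this was 38.5% and 23.2%. With both lists cut at a −log10 q of at least 5 and the classes formed anew, it was 53.0% and 35.7%. The whole lists differed in the same direction. Although the P4 list was the longer, it had 1875 summits within 200 bp of a coding start and the vehicle list had 2257. Part of the P4-only summits on the flanks lay beside vehicle regions: 43.0% of those within 1 kb of a start had a vehicle region within 1 kb. Of these, 15.9% lay within 200 bp of the start, against 25.4% of those with no such neighbour. In the vehicle-only class the corresponding values were 36.3% and 37.7%.

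**Figure D3:**
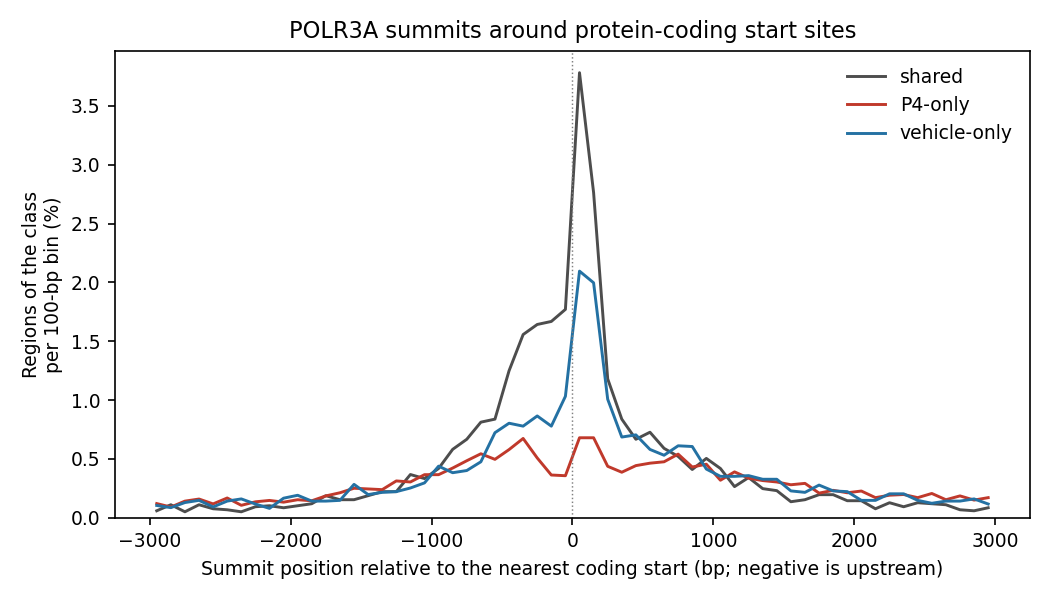
POLR3A summits by distance from the nearest protein-coding start in bp (negative is upstream), as the percent of each class per 100-bp bin. Shared and vehicle-only regions peak in the first 100 bp at 3.78% and 2.10%, and P4-only regions show a dip to 0.358% in the 100 bp before the start.

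The sequence of the promoters differed as well. A region of both lists overlapped 2097 of the 22131 coding promoter windows (9.48%), a P4 region alone 1374 (6.21%) and a vehicle region alone 1660 (7.5%). The median GC content was 66.7% in windows with a vehicle region alone, 62.2% in those with a P4 region alone, 63.0% in those with both and 61.7% in those with none. The median number of CpG dinucleotides per window was 28, 24, 25 and 18. The difference was present in each band of strength: windows with a vehicle region alone had 66.3%, 67.0% and 67.0% GC in the bands of −log10 q under 3, from 3 to 5 and from 5 on, and those with a P4 region alone 62.7%, 62.0% and 62.7%. The GC box GGGCGG was in 74.2% of the vehicle-alone, 62.2% of the P4-alone and 65.5% of the shared windows. TATAAA was in 3.67%, 6.11% and 7.30% of them. The ETS site CCGGAAG, bound by factors of many housekeeping promoters, was in 21.9%, 23.1% and 27.1%, against 12.8% of all windows. AGAACA, the half-site to which PR and related steroid receptors bind, was in 6.69% of vehicle-alone and 10.1% of P4-alone windows, against 11.7% of all. The AP-1 site TGACTCA was in 2.47% and 2.98% of these sets against 4.01% of all, and the GATA site AGATAA in 3.61% and 4.95% against 7.88%. The B box core was in 2.65% and 2.84%, and in 2.05% of the shared windows, against 2.28% of all. GC content differs between these sets, so the shares of motifs rich in G and C or in A and T move with it. Coverage of DNA rich in G and C can differ between libraries, and its part here was not tested.

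Gene groups with a role in RNA polymerase III transcription are described by whether a summit lay within 1 kb of a gene end, beside the 22.1%, 11.5% and 8.71% of all coding genes. Of 18 genes of the polymerase's own subunits, 10 had POLR3A in both lists, 2 in the P4 list alone and 2 in the vehicle list alone. POLR3E, with the tRNA gene before it, was far above the others, at 625.0 under vehicle and 511.8 under P4, while POLR3B, the second largest subunit, had 6.88 and 8.67. CRCP and POLR3F were in the P4 list alone, at 5.96 and 4.89, and POLR3K and POLR3G in the vehicle list alone, at 3.53 and 1.45. Of 23 initiation factors and regulators, 9 were in both lists, 4 in the P4 list alone and 5 in the vehicle list alone. BRF1 (1.86), SNAPC1 (3.87), SNAPC3 (3.17) and ZNF143 (4.31) were those of the P4 list. BDP1 (2.38) and TBP (3.53) of TFIIIB, GTF3A (2.68) or TFIIIA, GTF3C1 (2.43) of TFIIIC and SNAPC4 (2.32) were those of the vehicle list. For the genes in 1 list alone, all values except that of CRCP were a −log10 q under 5. Below 5, most regions of 1 list had no partner in the other.

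Enzymes that process and modify tRNA had 15 of 31 genes in both lists, 3 in the P4 list alone and 8 in the vehicle list alone. The vehicle-alone genes included ADAT2 (8.05), which converts adenosine to inosine in anticodons, ELAC2 (5.63), which cuts the 3′ trailer, and PUS1 (3.74), a pseudouridine synthase. The P4-alone genes included TRMT61A (6.86), a tRNA methyltransferase, and RPP25 (2.38) of ribonuclease P. Of 21 aminoacyl-tRNA synthetase genes, 12 were in both lists, 4 in the P4 list alone (YARS1, CARS1, NARS1 and IARS1, at 4.23, 3.72, 2.38 and 1.88) and 2 in the vehicle list alone (HARS1 and KARS1, at 4.89 and 3.36). With −log10 q held to 5 or more, the tRNA enzymes were 1 in both lists, 5 in the P4 list alone and 5 in the vehicle list alone, so their excess in the vehicle list did not hold at that limit. Across all coding genes the excess turned as well, from 2276 P4-alone and 1726 vehicle-alone genes to 944 and 1105. At that limit 980 of the 19817 coding genes were in both lists. A gene in 1 list alone at that limit may have a weaker summit in the other list.

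Genes of hormone response and of the luminal lineage had these counts. Of 20 known PR target genes, 4 had POLR3A at an end in both lists, 4 in the P4 list alone and 2 in the vehicle list alone, against 22.1%, 11.5% and 8.71% of all coding genes. With −log10 q held to 5 or more, 2 of them were in both lists and none in 1 list alone. For all 19817 coding genes the counts at that limit were 980 in both lists, 944 in P4 alone and 1105 in vehicle alone. DUSP1, a MAP kinase phosphatase, had 4.31, HSD11B2, which inactivates cortisol, 2.51, CCND1, or cyclin D1, 4.90 and the signalling ligand gene WNT4 3.17 in the P4 list. KLF4 and AREG, the gene of amphiregulin, had 4.94 and 3.53 in the vehicle list. FKBP5, a strong PR target and cochaperone of steroid receptors, was in both lists at 1.83 under vehicle and 4.95 under P4. The other genes in both lists were PER1, far above the rest at 447.9 and 467.2, ELF5 at 5.48 and 6.09 and MYC at 2.84 and 4.04. Among 17 luminal breast genes, 8 were in both lists, 4 in the P4 list alone and 2 in the vehicle list alone. PGR, the gene of PR itself, was in the P4 list alone at 4.43, as were XBP1 (3.17) and AGR2 (5.24), and TRPS1 at 2.51, while FOXA1 (3.60) and MLPH (3.53) were in the vehicle list alone. The keratin genes KRT8 and KRT18, whose spans overlap and which share 1 region, had 14.9 under vehicle and 12.5 under P4. KRT19 had 28.7 and 9.94.

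Steroid receptor coregulators had 8 of 19 genes in both lists, with PRMT1 (3.74) and HDAC3 (5.60) in the P4 list alone. NCOR1 (4.89), HDAC1 (6.41) and the cochaperone gene FKBP4 (9.42) were in the vehicle list alone. Of 18 immediate early and AP-1 genes, 7 were in both lists, 4 in the P4 list alone and 1 in the vehicle list alone. JUN had 6.34, ATF3 3.85, EGR1 2.66 and NR4A1 2.58 in the P4 list, and FOSL2 had 4.19 in the vehicle list. Each of these values comes from a single region in 1 list, with no value per replicate. Among all 19817 coding genes at a −log10 q of 5 or more, 980 were in both lists. The P4 list alone had 944 and the vehicle list alone 1105. With −log10 q held to 5 or more, the counts in both lists, the P4 list alone and the vehicle list alone were 4, 1 and 1 for the luminal genes, 3, 3 and 3 for the coregulators, 1, 3 and 2 for the immediate early genes, 4, 1 and 2 for the polymerase subunits, 4, 1 and 3 for the initiation factors and 2, 0 and 2 for the synthetases.

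**Figure D4:**
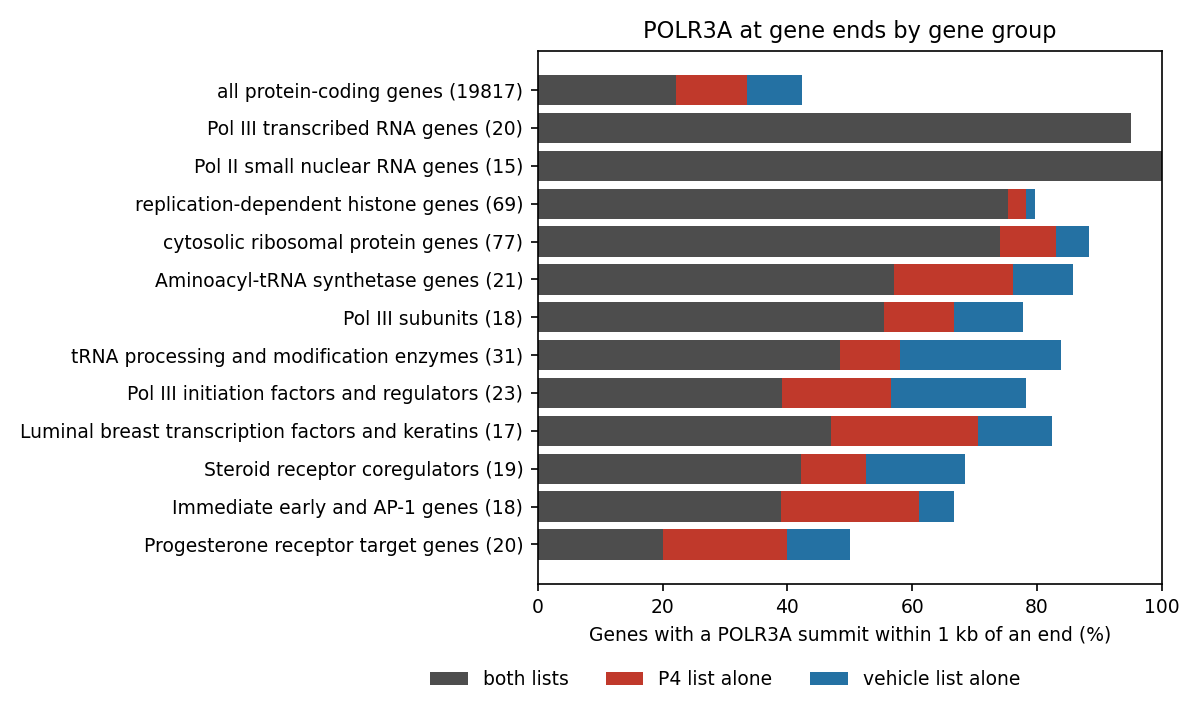
Percent of the genes of each group (number of genes in brackets) with a POLR3A summit within 1 kb of an end in both lists, in the P4 list alone or in the vehicle list alone. RNA polymerase III genes stand at 19 of 20 in both lists and none in 1 list alone, against 22.1% in both for all coding genes.

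Some genes held many P4-only regions. At least 1 P4-only region lay in or within 1 kb of 8367 coding genes and at least 10 in 280. For vehicle-only regions these were 6493 and 24 genes, and for shared regions 4761 and 23, but the classes differ in size. With lists of equal length, added after the values were seen, at least 1 P4-only region lay at 5984 genes and at least 10 at 83, and for vehicle-only regions these were 7084 and 45. GSE1, spanning chr16:85169512-85676200, had the most of each class, with 102 P4-only, 34 vehicle-only and 103 shared regions. KCNMA1, the gene of a calcium-activated potassium channel, had 101 P4-only regions and only 14 vehicle-only and 20 shared ones. ANKRD11, a chromatin regulator, had 64, 9 and 12. GRIK4, a kainate receptor subunit, had 55, 18 and 19, and ZMIZ1, a coactivator of the PIAS family, 42, 15 and 10. The synaptic scaffold gene SHANK2 had 41, 16 and 8, DLG5, a scaffold of cell polarity, 37, 9 and 14, and PRLR, the prolactin receptor, 35, 13 and 15. PR regions under P4 were many in the same genes, at 251 in GSE1, 165 in KCNMA1, 108 in ANKRD11 and 73 in PRLR. Among genes with at least 5 P4-only regions in or within 1 kb of them, PRELID1, a mitochondrial lipid transfer protein, had the most for the length of the gene, with 5 for a gene of 3.15 kb and none of the other classes, ahead of ACOT2 with 7 for 8.04 kb.

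The genes with the most vehicle-only regions were in part the same long genes, GSE1, GRIK4, SHANK2 and ZMIZ1. RASA3, a Ras GTPase-activating protein, had 14 vehicle-only against 8 P4-only regions, as many as KCNMA1, ANXA8 and NBPF10. The others were genes of segmental duplications: NBPF20 with 27 against 16, SRGAP2B with 17 against 19 and NBPF10 with 14 against 12. Reads of these duplicated genes, and of GOLGA6A (7 vehicle-only regions) and TBC1D3C (5), cannot be assigned to single copies. MATCAP1 had 6 vehicle-only regions for a gene of 8.37 kb.

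Neighbouring regions with gaps of up to 5 kb were joined into runs. P4-only regions formed 631 runs of at least 5, which held 11.5% of the class. The longest, 25 regions in 50.9 kb of TNS3, another tensin gene, lay at chr7:47568513-47619365, and 21 of its regions overlapped a PR region under P4. Runs of 21 lay in DLG5, of 19 in GSE1 with GINS2 and in CUEDC1, and of 18 in EPN2. Vehicle-only regions formed 71 runs of at least 5, with 2.45% of the class. The longest, 13 regions in 34.0 kb of chromosome 4, lay in an array of USP17L deubiquitinase genes that are near copies of each other. A run of 8 lay over HSF4, NOL3 and MATCAP1. With lists cut to the same length the classes lay closer together. There were then 142 P4-only and 118 vehicle-only runs, with 4.41% and 3.82% of the regions, and the longest vehicle-only run, of 17, was above the longest P4-only run, of 12.

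P4-only and vehicle-only regions lay about equally far from shared regions. Within 5 kb of a shared region lay 25.3% of P4-only regions (24.8 to 25.7) and 25.2% of vehicle-only regions (24.6 to 25.9), against 48.3% of shared regions with another shared one so near. With lists of equal length the first pair of shares was 24.3% and 21.8%. The median distances were 24.0, 26.9 and 5.64 kb. P4-only and vehicle-only regions were also neighbours of each other: 21.0% of vehicle-only regions had a P4-only one within 1 kb, and 10.8% of P4-only regions a vehicle-only one. Some regions missed an overlap narrowly, as 4.35% of P4-only regions lay within 200 bp of a vehicle region and 7.52% of vehicle-only regions within 200 bp of a P4 region. In the other direction, requiring that the overlap cover at least 50% of both regions lowered the shared share from 25.78% to 15.83% of the P4 list and from 42.02% to 26% of the vehicle list.

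The strongest P4-only regions lay mostly far from genes. All 10 P4-only regions with the highest −log10 q, from 22.9 to 32.4, were over 500 kb from a coding gene, on chromosomes 1, 2, 11 and 13. The first was at chr1:123240906-123241160. In GRCh38 such gene-free stretches include modelled centromeric repeats, where reads cannot be assigned to 1 place. These stretches make up 329.5 Mb between coding genes and held 72.0% of the 322 P4-only regions with a −log10 q of at least 10 and 39.4% of the 193 such vehicle-only regions, the latter near the 39.9% of the 2267 shared regions of that strength. Without them, 90 P4-only and 117 vehicle-only regions of that strength were left, of 1453 and 1650 such regions in the lists. Among the 10 strongest vehicle-only regions, 5 were over 500 kb from a coding gene, led by chr17:22521294-22521515 at 33.7.

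Nearer to genes, in a list made after the values were seen, the strongest P4-only regions were at 147.1 kb from CA10 (20.9), at 484.7 kb from EMB (17.1), at an end of SELENOP (16.1), inside ZNF704 (15.7) and inside PIK3C2B (15.5). The SELENOP region, chr5:42811775-42812040, had its summit 25 bp from an end of this gene of a plasma selenium carrier. Start and far end of the gene were not told apart in this distance. The region overlapped a PR region under P4 and none under vehicle. PIK3C2B encodes a lipid kinase, and its region overlapped none of PR. The strongest vehicle-only regions near genes were at 97.7 kb from BLID (24.9), at 71.6 kb from LOC101929601 (20.2), inside TRIO (19.4), inside RASA3 (18.2) and at 244.6 kb from B3GAT1 (17.7). Regions inside PPFIA2 and GABRG3 had the same fold of 8.24 and −log10 q of 17.5. Of the 10 strongest vehicle-only regions within 500 kb of a coding gene, 7 met a region of the PR vehicle list alone, among them those of BLID, TRIO, RASA3, B3GAT1, PPFIA2 and GABRG3, 2 met both PR lists and 1 met neither. Of the 10 strongest such P4-only regions, 2 met the PR P4 list alone, 6 both and 2 neither.

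PR, the second factor mapped, was the readout that the classes did not use. Of the shared regions 77.3% overlapped a PR region under P4 (76.5 to 78.0), as did 41.2% of the P4-only regions (40.7 to 41.7). Of the vehicle-only regions 17.6% overlapped a PR region under vehicle (17.0 to 18.2). The PR lists differed in length, with 111515 regions under P4 and 38933 under vehicle. With the PR P4 list cut to 38933 regions, added after the values were seen, the P4-only share was 16.05%, below the vehicle-only 17.61%, so the order of the classes turned. The shared class stayed highest at 41.01%. Regions of the vehicle-only class overlapped the PR P4 list more often than their own treatment's list, at 34.6%. Of all P4-only regions, 56.1% met no PR region in either list, and of the vehicle-only ones 59.8%. At RNA polymerase III genes, where regions were strongest, 41.1% of the shared regions overlapped PR under P4, below the 77.9% at coding gene ends.

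Some regions were seen under 1 treatment alone with both antibodies. Vehicle-only regions that overlapped a PR region under vehicle and none under P4 were 3.51% of those with a −log10 q from 1.3 to 2.5, 5.16% from 2.5 to 5, 10.0% from 5 to 10 and 25.4% (19.8 to 32.0) from 10 on. Within 500 kb of a coding gene the values were 2.98%, 4.57%, 7.06% and 24.8%. The P4-only regions that overlapped a PR region under P4 and none under vehicle were 23.9%, 28.7%, 34.2% and 29.2% in the same bands. Within 500 kb of a coding gene they were 24.0%, 28.8%, 35.3% and 36.7%, the last over 90 regions and within counting error of the band before it. Regions also met PR of the opposite treatment alone. Vehicle-only regions overlapped a PR region under P4 and none under vehicle at 21.6% from 1.3 to 2.5 and 23.9% from 5 to 10. In each band below 10 this exceeded their share with PR under vehicle alone, and from 10 on it was 13.5%. P4-only regions overlapped PR under vehicle and none under P4 at 2.17%, 2.79%, 3.68% and 8.39%. The PR P4 list was the longer one, and the part of its length was not tested. The labels list 1 pooled input per treatment for both antibodies. Which control the lists were called against is not given in the sources used here, and the part of the input in these regions was not tested.

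The full P4 list was the longer one on each chromosome, with more P4-only than vehicle-only regions on 23 of 23. The P4 list was 1.21 times as long as the vehicle list on chromosome 13 and 2.04 times on chromosome 20, with a median of 1.58. Both lists were dense on chromosome 20, with 48.0 P4 and 23.5 vehicle regions per Mb, and on chromosome 17, with 39.4 and 24.1. They were thin on chromosome 2, with 4.32 and 3.46, on chromosome 4, with 4.30 and 3.52, and on X, with 3.22 and 2.53. PR regions under P4 were also dense on chromosome 20, at 90.4 per Mb, and thin on chromosome 2, at 19.3, and X, at 10.2. T47D cells carry gains and losses of chromosomes, and the part of copy number in these densities was not tested.

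**Figure D5:**
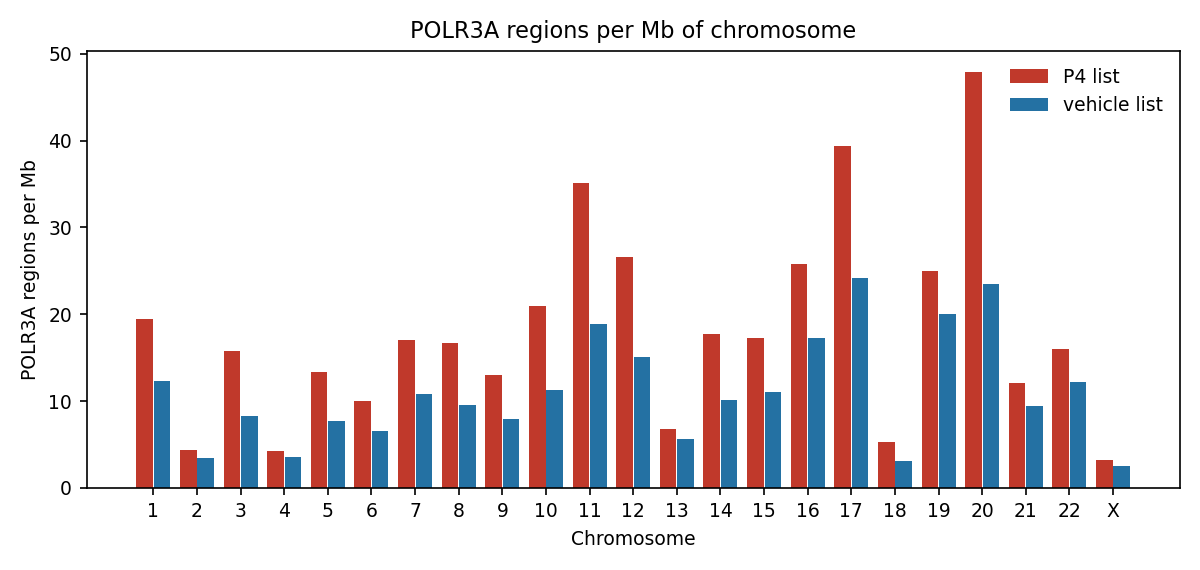
POLR3A regions per Mb of chromosome in the P4 and the vehicle list. Chromosome 20 had the most in the P4 list (48.0 per Mb) and X the fewest (3.22 per Mb), and the P4 column is the higher one on all 23 chromosomes.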

How the data were processed

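POLR3A and PR ChIP-seq had been carried out in T47D cells, with 3 libraries per antibody and treatment. The submitters' processing notes name cutadapt, Bowtie2, MACS2 and the build hg38 without versions; the control and the pooling of replicates are not given in the sources used here. The authors deposited 1 narrowPeak list per group, in which each region has a fold enrichment, a ratio, and a −log10 q-value per the column order of that format. The highest q-value of a P4 or vehicle POLR3A region was 0.0497. Read counts were not used here, so the depth is unknown and no test across replicates was possible; shares carry 95% Wilson intervals that cover counting error only.

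Regions on chromosomes 1 to 22 and X were compared by overlap of at least 1 bp with pandas 2.3.3 and numpy 2.4.6 in Python 3.11.15. Both overlap counts were checked with bedtools 2.31.1 and were equal, and 1500 of 1500 planted overlaps were found on simulated data. Genes came from the RefSeq table of GRCh38.p14 (58415 genes kept, 19817 of them protein-coding and 429 tRNA genes), starts and sequences from RefSeq promoter windows. Each region was assigned once, first to an RNA polymerase III gene if any part of it overlapped one or the 100 bp around it. The others were assigned by their summit in this order: coding gene end within 1 kb, inside a coding gene, over 500 kb from one, lncRNA gene, then by distance.

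The text names the 10 strongest and 5 widest regions of a class or the first of these, the regions with the most partners, the genes and runs with the most regions, and genes of fixed lists with POLR3A at an end under 1 treatment; genes present in both lists are examples chosen after their values were seen, and a few items that the rule names are not reported here. The members and gene lists were chosen with earlier results of these data known. Alternatives were a −log10 q of at least 5, lists of equal length, a reciprocal overlap of 50%, wider distances and stricter PR lists.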

Additional observations from a re-analysis of the deposited data

Results flagged for a closer look

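The POLR3A lists also held regions on sequences outside the assembled chromosomes, which the comparison above does not use. These were 715 regions on 83 such sequences under P4 and 711 on 86 under vehicle. A list of regions for the pooled inputs was not used here. Under P4 507 of them were shared, 70.9% (95% Wilson interval 67.5 to 74.1), and under vehicle 476, 66.9% (63.4 to 70.3), above the 25.8% and 42.0% on the chromosomes. Their median −log10 q was 7.501 under P4 and 8.60 under vehicle, and the highest was 181.0 and 182.8. Many of these sequences are repeats, where reads cannot be assigned to 1 place.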

How the results depend on the processing

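Lists differ in length, depth is unknown and no list has a replicate check, so the classes depend on where each list ends. No paired analysis was possible because the replicates of a group share 1 list, and for the same reason leaving out a replicate was not run. The cause of each shift was not tested.

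Values follow in this order: −log10 q of at least 5, lists of equal length, reciprocal overlap of at least 50%, and without regions over 500 kb from a coding gene, the last added after the values were seen. At a −log10 q of at least 5 both lists were cut and the classes formed anew. A region of 1 list alone may there overlap a weaker region of the other list. The shared share was 40.27, 33.85, 15.83 and 24.11% of the P4 list and 46.7, 33.99, 26 and 39.98% of the vehicle list. Shares within 1 kb of a coding gene end were 18.03, 25.66, 22.72 and 30.76% for shared, 17.08, 13.23, 14.61 and 13.02% for P4-only and 25.57, 20.05, 21.74 and 20.01% for vehicle-only regions. Median widths were 402, 379, 346 and 376 bp for shared, 294, 257, 267 and 262 bp for P4-only and 288, 259, 264 and 256 bp for vehicle-only regions. Shares within 5 kb of a shared region were 16.07, 24.3, 17.83 and 24.73% for P4-only, 16.11, 21.8, 19.51 and 24.66% for vehicle-only and 42.91, 45.59, 37.98 and 46.82% for shared regions. Overlap with PR of the same treatment was 69.01, 47.21, 45.57 and 40.6% for P4-only and 37.51, 19.85, 23.88 and 16.15% for vehicle-only regions, and 83.68, 80.26, 76.72 and 75.64% for shared regions with PR under P4.

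With gene ends taken to 5 kb, the shares were 40.06, 31.84 and 37.27% for shared, P4-only and vehicle-only regions. With shared regions taken to 20 kb, they were 46.5, 44.83 and 67.39% for P4-only, vehicle-only and shared regions. With PR regions of a −log10 q of at least 5, overlap with PR was 22.66, 8.458 and 55.24% for P4-only, vehicle-only and shared regions. With the PR P4 list cut to the length of the PR vehicle list, added after the values were seen, it was 16.05, 17.61 and 41.01%.

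Under these settings P4-only regions had the lowest share at gene ends, and shared regions the largest width and the closest spacing. At a −log10 q of at least 5, though, the P4-only and shared intervals at gene ends overlapped, at 16.1 to 18.1% and 16.8 to 19.3%. The order of P4-only and vehicle-only regions turned for width with lists of equal length, for the distance to shared regions at a −log10 q of at least 5 and with reciprocal overlap, and for PR with the PR list cut.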

Other observations

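Other gene groups, chosen after earlier values were seen, differed in how often POLR3A lay at their ends in both lists, against 22.1% for all coding genes. Of all coding genes 11.5% were in the P4 list alone and 8.71% in the vehicle list alone. Replication-dependent histone genes are short and intronless, and many of them cluster with tRNA genes on chromosome 6, whose part was not tested. Of 69 such genes, 52 had a summit within 1 kb in both lists, 2 in the P4 list alone and 1 in the vehicle list alone. Their median −log10 q was 14.1 under vehicle and 11.5 under P4. Of 77 cytosolic ribosomal protein genes, 57 were in both lists, 7 in the P4 list alone and 4 in the vehicle list alone, with medians of 7.27 and 6.34. These shares were 75.4% and 74.0%. Genes of long noncoding RNAs were in both lists at 1466 of 17904 (8.19%). They were in the P4 list alone at 1209 (6.75%) and in the vehicle list alone at 658 (3.68%). Of 1190 small nucleolar RNA genes, 62 (5.21%) were in both, 61 (5.13%) in the P4 list alone and 23 (1.93%) in the vehicle list alone.

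Hairpins of microRNAs were overlapped by both lists at 20 of 1558, by a P4 region alone at 32 and by a vehicle region alone at 26. The strongest shared hairpins lay beside tRNA genes. MIR4521 at chr17:8186945-8187004 (plus strand) had a −log10 q of 516.5 in the vehicle list and 491.4 in the P4 list, with TRW-CCA3-3 among the tRNA genes within 1 kb. MIR4638 at chr5:181222566-181222633 (minus strand), with TRK-CTT2-3 so near, had 466.8 and 527.6. MIR2117 at chr17:43444806-43444885 (plus strand) led those of the P4 list alone at 13.9, and MIR1292 at chr20:2652777-2652842 (plus strand) those of the vehicle list alone at 8.12. Their mature RNAs per RefSeq, GRCh38.p14, with the seed (bases 2 to 8) in capitals, share no seed.
hsa-miR-4521: gCUAAGGAaguccugugcucag
hsa-miR-4638-5p: aCUCGGCUgcgguggacaagu
hsa-miR-2117: uGUUCUCUuugccaaggacag
hsa-miR-1292-5p: uGGGAACGgguuccggcagacgcug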
